A study of Mus musculus with 8 samples.

Results

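The core circadian loop was read here through 9 genes, the activators *Arntl* (which encodes BMAL1), *Clock* and *Npas2* and the repressors *Cry1*, *Cry2*, *Per1*, *Per2*, *Per3* and *Ciart*, in bulk RNA-seq of mouse gastrocnemius muscle. The members were found by gene symbol among the 32390 rows of the count table, and each of the 9 was present as a row and passed the filter on low counts. The muscle came from 4 *Nox4* fl/fl mice (control) and 4 MckCre:*Nox4* fl/fl mice (NOX4-deficient), in which Cre under the muscle creatine kinase promoter, active mainly in skeletal and less in cardiac muscle, recombines *Nox4*. NOX4 is an NADPH oxidase that makes hydrogen peroxide. All 8 mice carried the floxed alleles, were 21 months old by the labels and were males on a C57BL/6 background fed standard chow under a light-dark cycle. Only the NOX4-deficient mice carried Cre, so that carrying Cre and lacking *Nox4* cannot be told apart in this design. The hour at which the muscles were taken is not given in the sources used here.

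The mammalian clock is a loop of transcription and repression. BMAL1 pairs with CLOCK, or with its relative NPAS2, and the pair binds E-box sequences to switch on the *Per*, *Cry* and *Ciart* genes, whose proteins gather, return to the nucleus and silence the pair. A second loop, in which ROR proteins activate and REV-ERB proteins (*Nr1d1*, *Nr1d2*) repress through shared elements, drives the rhythm of *Arntl* itself. In skeletal muscle, as in other tissues, *Arntl* and *Npas2* peak at a time of day opposite to that of *Per3*, *Ciart* and *Dbp*, and the muscle clock sets daily rhythms in fuel use.

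The libraries held 16350548 to 19804661 counts, and the labels place all 8 in 1 batch. *Nox4*, the deleted gene, had 35 to 85 counts in control and 29 to 43 counts in NOX4-deficient libraries, with overlapping groups and a log2 fold change that edgeR put at -0.65 (95% interval -1.28 to -0.01, adjusted p = 0.207). An exact two-sided permutation test of its level gave p = 0.2, where 0.0286 is the smallest p that 4 mice against 4 allow. The direction was that of the labels, but the fall of *Nox4* RNA was not called. The counts are per gene, so that reads from the floxed exons and from the rest of the gene cannot be told apart. Skeletal muscle markers were abundant in every library, and 0 of 10 were called in edgeR, 0 at an unadjusted p under 0.05 and 0 in DESeq2. The second principal component (19% of the variance) held replicates 1 and 3 above replicates 2 and 4 in both genotypes (4.21 to 21 against -5.92 to -3.55 in control, 17 to 18.5 against -26.3 to -25 in NOX4-deficient), so that key values are also given for odd and for even replicate numbers.

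Among the activators, *Arntl* and *Npas2* fell in NOX4-deficient muscle, and among the repressors *Per3* and *Ciart* rose. *Clock*, *Cry1*, *Cry2*, *Per1* and *Per2* did not pass the test. Levels are given as CPM, the share of a library's counts scaled by the TMM method. A gene was called where its adjusted p in edgeR was under 0.05 and its log2 fold change, NOX4-deficient over control, was over 0.5 in size. By this rule 2 of 3 activators were called lower, where 3.48% of the 12725 rows tested were called lower, and 2 of 6 repressors were called higher, where 2.68% of all rows were. In either direction 4 of 9 members were called, beside 6.16% of all rows. The same 4 members had groups that did not overlap, beside 16.2% of all rows. Those were 2 members apart in the lower direction, where 8.97% of all rows were, and 2 in the higher, where 7.2% were. Without *Npas2*, which passed the filter on low counts through its high control libraries, 3 of 8 members were called, and the same 3 were apart. The plot of members by library shows the values.

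**Figure D1:**
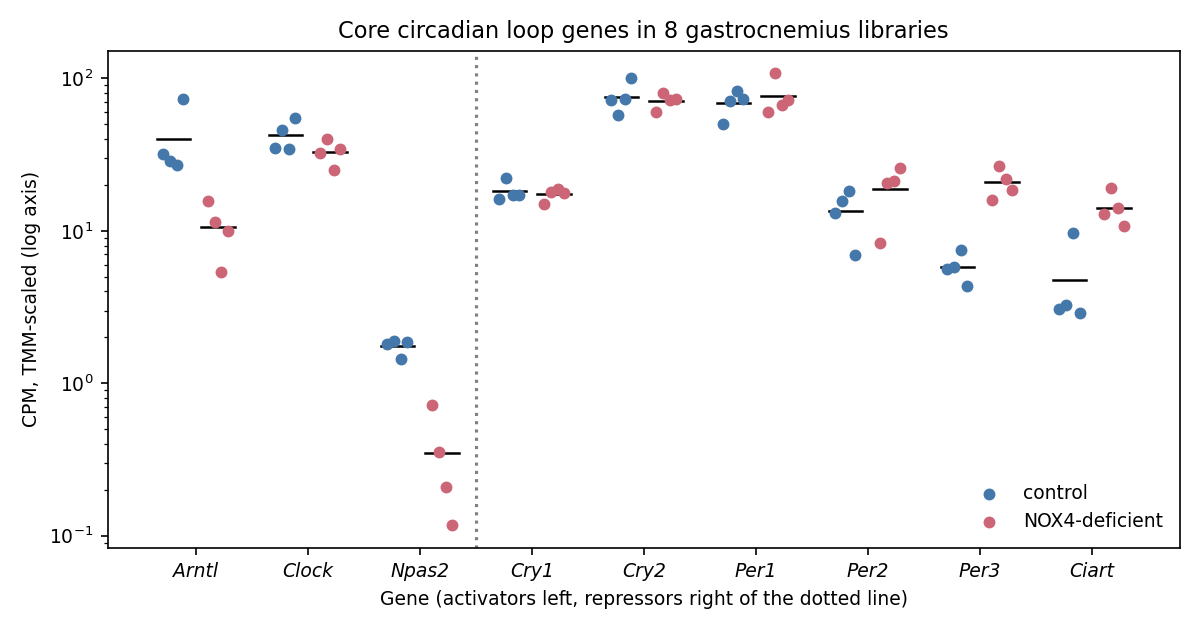
Level of each core loop gene (CPM, log axis) in each of 4 control and 4 NOX4-deficient libraries, 1 point per mouse, with the group mean as a bar. The groups are apart for *Arntl* and *Npas2* (lower in NOX4-deficient) and for *Per3* and *Ciart* (higher), and overlap for the other 5 genes.

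*Arntl* encodes BMAL1, the partner that CLOCK and NPAS2 both need. Its level, as CPM, was 32.1, 28.7, 27.1 and 73.5 in control replicates 1 to 4 and 15.6, 11.4, 5.36 and 9.91 in NOX4-deficient replicates 1 to 4. Every NOX4-deficient mouse lay below every control mouse, and control replicate 4 stood far above the other controls. The means were 40.4 ± 22.2 and 10.6 ± 4.22 CPM (SD, n = 4 each), and the log2 fold change was -1.94 (95% interval -2.86 to -1.01, edgeR adjusted p = 0.0243). Without control replicate 4 the change was smaller, at -1.47, and was still called (adjusted p = 0.0137). The call was lost without NOX4-deficient replicate 2 (adjusted p = 0.0823) and without NOX4-deficient replicate 4 (0.0702), with the size of the change at -1.98 and -1.89.

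*Npas2* encodes a relative of CLOCK that can take its place beside BMAL1. It was the scarcest member, with 30, 37, 27 and 36 counts in the controls and 12, 7, 4 and 2 counts in the NOX4-deficient libraries. The NOX4-deficient counts all lay below the lowest control count. Its mean level dropped from 1.75 ± 0.211 to 0.351 ± 0.266 CPM (SD, n = 4 each), with -2.32 as the log2 fold change (95% interval -3.23 to -1.41, edgeR adjusted p = 0.00713). *Npas2* passed the filter on low counts (0.527 CPM in at least 4 libraries) through its control libraries, since 1 NOX4-deficient library exceeded that level, so that it could pass only if its groups differed, and without it 1 of 2 activators was called. It was called with each library left out in turn, with a log2 fold change from -2.88 to -2.03.

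*Clock*, the third activator, encodes the usual partner of BMAL1. It stood at 34.7, 45.7, 34.4 and 55.3 CPM in the controls and at 32.2, 40.2, 25 and 34.4 CPM in the NOX4-deficient libraries. The groups overlapped, although the lowest library of all was NOX4-deficient replicate 3 and the highest was control replicate 4. Its log2 fold change was -0.37 (95% interval -0.75 to 0.01, edgeR adjusted p = 0.233). The intervals of *Arntl* and *Clock* did not overlap, although the difference between the genes was not tested.

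The promoter of *Arntl* is shown because the nuclear receptor loop acts there. RefSeq promoter windows on GRCm38.p6 (250 bases before to 50 after an annotated start) were at hand for 8 of the 9 members. They were searched on both strands for the E-box CACGTG, the D-box TTATGTAA, the core of the ROR element TAGGTCA and the cyclic AMP response element TGACGTCA. The ROR core was present in 1 of the 2 *Arntl* windows, beginning 31 bases after the start site, and occurs in 2.61% of all 32851 windows. *Nfil3*, a repressor of D-box genes described further on, holds the core on the strand opposite to its transcript, so that it reads TGACCTA along the transcribed strand. A match is a description of letters, not of binding. The 30 bases around each match follow, 5′ to 3′ along the transcribed strand, with the match in capitals, at chr7:113207530-113207559 (plus strand) and chr13:52981033-52981062 (minus strand).
*Arntl*: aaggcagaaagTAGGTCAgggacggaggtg
*Nfil3*: gcgctcggaacTGACCTActaacacacatc
The windows of *Clock* and *Npas2* held none of these letters.

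Among the repressors, *Per3* changed most in relation to its spread. PER3 is the period protein that adds to the repressor complex without being essential for rhythm. Its level was 5.63, 5.76, 7.54 and 4.37 CPM in the controls and 15.9, 26.8, 21.9 and 18.6 CPM in the NOX4-deficient libraries. The lowest NOX4-deficient mouse had more than 2 times the level of the highest control mouse. The group means were 5.83 ± 1.31 and 20.8 ± 4.68 CPM (SD, n = 4 each), which gave a log2 fold change of 1.84 (95% interval 1.41 to 2.26, edgeR adjusted p = 2.85e-04). *Per3* was called under each of the 19 alternatives tried, with a log2 fold change from 1.51 to 2.17. Its gene lies within the span of *Camta1* on the same strand without shared exons in GENCODE M21, and *Camta1* had 397 to 515 counts in each library.

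*Ciart* (also called Chrono) encodes a protein that binds BMAL1 and represses its targets. Its levels were 3.06, 3.24, 9.69 and 2.91 CPM in the controls and 12.9, 19.1, 14.1 and 10.7 CPM in the NOX4-deficient libraries. The groups did not overlap, but control replicate 3 stood close to the lowest NOX4-deficient mouse and about 3 times above the other controls. With 4 mice in each group, the means were 4.72 ± 3.31 and 14.2 ± 3.53 CPM (SD), and the log2 fold change was 1.59 (95% interval 0.74 to 2.44, edgeR adjusted p = 0.0334). Without control replicate 3 the log2 fold change was 2.22 (adjusted p = 3.42e-04). In 6 of the 8 fits that left out 1 library the call was lost, with adjusted p from 0.0711 to 0.0891, while the log2 fold change over all 8 ran from 1.41 to 2.22.

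*Per2*, whose protein is a main brake of the loop, stood at 13.1, 15.7, 18.2 and 6.91 CPM in the controls and at 8.36, 20.5, 21.1 and 25.7 CPM in the NOX4-deficient libraries. In 3 of 4 NOX4-deficient mice it was above every control, and in replicate 1 it was below 3 of the 4 controls. The log2 fold change was 0.49 (95% interval -0.30 to 1.28, edgeR adjusted p = 0.453), so that a rise of more than 2-fold or a small fall would both be within the interval. *Per1*, an early-responding period gene, had 50.4 to 82.4 CPM in the controls and 60.2 to 108 CPM in the NOX4-deficient libraries, and its log2 fold change was 0.15 (95% interval -0.27 to 0.56, edgeR adjusted p = 0.689). The period genes thus did not all meet the test, and the interval of *Per3* lay above those of *Per1* and *Per2*. This difference between genes was not tested.

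The cryptochromes, which carry most of the repression of the BMAL1 and CLOCK pair, showed the smallest changes of the loop. *Cry1* had 16.2, 22.2, 17.2 and 17.3 CPM in the controls and 14.9, 18.1, 18.7 and 17.8 CPM in the NOX4-deficient libraries. Its log2 fold change of -0.07 had a 95% interval from -0.35 to 0.21 (edgeR adjusted p = 0.797). *Cry2* had 57.5 to 100.4 CPM in control, with replicate 4 highest, and 60.2 to 80.5 CPM in NOX4-deficient libraries. Its log2 fold change was -0.08 (95% interval -0.42 to 0.25, edgeR adjusted p = 0.802). For both genes the intervals lie within the log2 fold change of 0.5 that a call needs.

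The promoters of the repressors are shown where they carry the elements of the loop. The window of *Ciart* held 3 E-boxes, at 116, 58 and 44 bases before the start, and those of *Per1* and *Cry1* held 1 each, where 7.15% of all windows hold at least 1. The window of *Per3* held 2 D-boxes, the site of DBP, TEF, HLF and NFIL3, where 0.938% of all windows hold at least 1. That of *Cry2* held none of the 4 motifs, and no window was given for *Per2*. The stretches with these matches follow in capitals, 5′ to 3′ along the transcribed strand. They lie at chr3:95882259-95882353 (minus strand), chr4:151044806-151044880 (minus), chr11:69098771-69098800 (plus) and chr10:85185097-85185126 (minus) of GRCm38.p6.
*Ciart*: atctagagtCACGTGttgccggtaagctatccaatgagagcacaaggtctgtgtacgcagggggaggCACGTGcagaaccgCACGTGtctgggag
*Per3*: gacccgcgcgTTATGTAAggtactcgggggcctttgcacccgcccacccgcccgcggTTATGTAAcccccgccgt
*Per1*: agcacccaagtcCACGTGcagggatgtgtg
*Cry1*: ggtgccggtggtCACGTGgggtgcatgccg
Of the genes with an E-box here, *Ciart* was called and *Per1* and *Cry1* were not, and the 2 D-boxes were on the called *Per3*. A link between these letters and the changes was not tested.

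Compared per length of the longest GENCODE M21 transcript, *Cry2* (19.1 CPM per kb) and *Per1* (14.8) were the most abundant members in control muscle, followed by *Arntl* (10.1), *Cry1* (6.03), *Clock* (4.37), *Ciart* (2.44), *Per2* (2.31), *Per3* (0.971) and *Npas2* (0.414). In control mice the ranges of neighbours in this order overlapped, except between *Per3* (0.728 to 1.26) and *Npas2* (0.341 to 0.449). By the means in NOX4-deficient muscle, *Arntl* stood at 2.65 CPM per kb, last but for *Npas2* (0.0828). *Ciart* (7.33) had moved up to the third place behind *Cry2* (18) and *Per1* (16.4). There the range of *Arntl* (1.34 to 3.9) overlapped those of *Per3* (2.66 to 4.47), *Per2* (1.43 to 4.4) and *Clock* (2.56 to 4.12). The range of *Ciart* (5.53 to 9.83) overlapped that of *Cry1* (4.93 to 6.18). The ratio of *Per3* to *Arntl* per kb, a pair singled out after the values were seen, was 0.117, 0.134, 0.185 and 0.0396 in the controls. It was 0.681, 1.56, 2.72 and 1.25 in the NOX4-deficient mice, so that *Per3* exceeded *Arntl* in 3 of these 4 mice and in none of the controls.

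Within each mouse, the activators were set against the repressors as the mean log2 CPM of the 3 activators minus that of the 6 repressors. This index was -0.27, -0.33, -1.01 and 0.40 in control replicates 1 to 4 and -1.51, -2.53, -3.05 and -2.72 in NOX4-deficient replicates 1 to 4. All 4 NOX4-deficient mice lay below all controls, with control replicate 4 at the upper end and NOX4-deficient replicate 1 nearest to the controls. The group means were -0.30 ± 0.58 and -2.45 ± 0.66 (SD, n = 4 each), a difference of -2.15 on the log2 scale. It is given as a description with no test, since it is a score over members. The activators contributed a difference of -1.48 and the repressors one of 0.67. With *Npas2* left out the activators differed by -1.12 and the index by -1.79, and the groups still did not overlap. The plot of activators and repressors by mouse shows both parts.

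**Figure D2:**
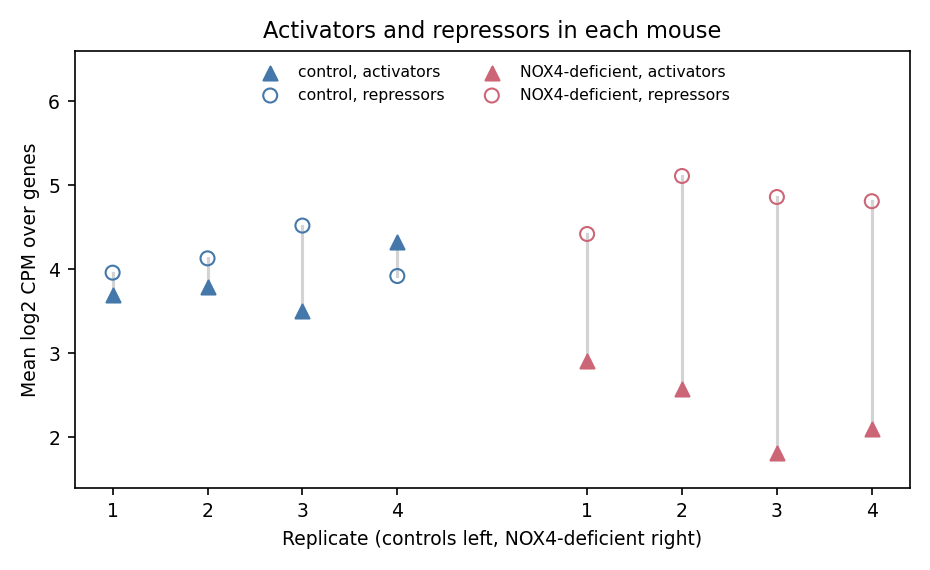
Mean log2 CPM of the 3 activators (triangles) and of the 6 repressors (open circles) in each mouse, with a grey line joining the pair. The pair lies within 1.01 log2 units in every control mouse and 1.51 to 3.05 apart in the NOX4-deficient mice, with the activators below. CPM is not corrected for transcript length, so the gap is to be compared between mice, not read as a ratio of proteins.

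The mice also differed within a genotype. Among the controls, replicate 4 had the most *Arntl*, *Clock* and *Cry2* and the least *Per2*, *Per3* and *Ciart*, whereas replicate 3 had the most *Per1*, *Per2*, *Per3* and *Ciart* and the least *Arntl*, *Clock* and *Npas2*. Among the NOX4-deficient mice, replicate 1 had the most *Arntl* and *Npas2* and the least *Per1*, *Per2*, *Per3*, *Cry1* and *Cry2*. Thus in both genotypes the mouse with most *Arntl* had the least *Per2* and *Per3*. These orders are descriptions of 4 mice each, with no test.

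In the odd-numbered replicates alone (2 against 2) the log2 fold changes were -1.52 for *Arntl*, -1.82 for *Npas2*, 1.51 for *Per3* and 1.07 for *Ciart*. In the even-numbered replicates they were -2.25, -2.92, 2.17 and 2.28, in the same order. Each of the 4 kept its direction in both and was larger in size in the even numbers. *Per3* was called in both, *Ciart* in the even numbers (edgeR adjusted p = 0.032), and *Arntl* and *Npas2* in neither at this number of mice. *Per2* had -0.09 in the odd and 1.04 in the even numbers. The plot of fold changes with libraries left out shows these values.

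**Figure D3:**
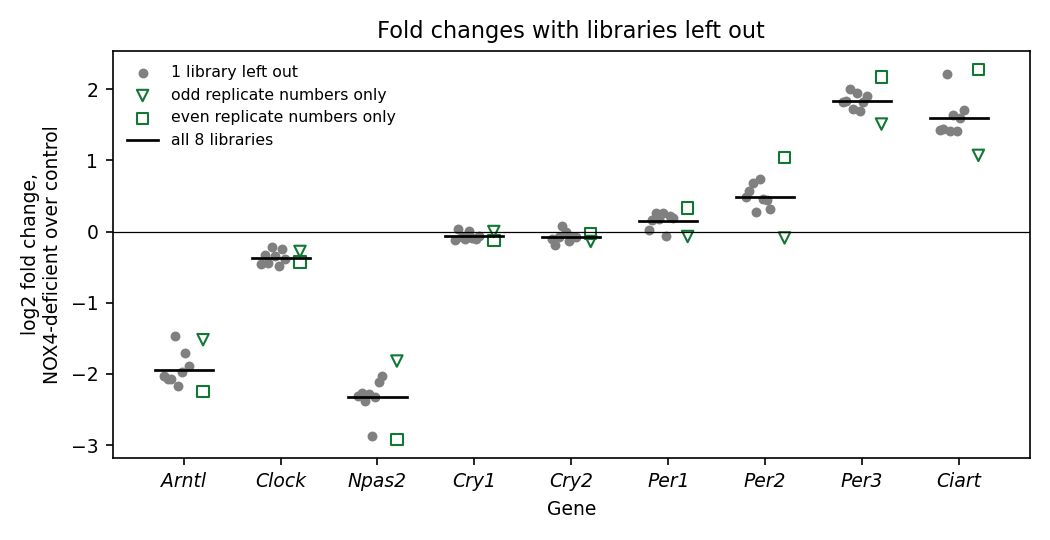
log2 fold change of each core loop gene, NOX4-deficient over control, with all 8 libraries (bar), with 1 library left out (grey points), and in the odd (triangles) or even (squares) replicate numbers only. *Arntl*, *Npas2*, *Per3* and *Ciart* stay on 1 side of 0 throughout, while *Per1* (-0.07 to 0.33) and *Per2* (-0.09 to 1.04) reach or cross 0.

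Beyond the 9 members, a list of 43 other clock genes was read from the same fit. Of the 41 tested, 2 were called lower (*Nfil3* and *Wdr5*) and 3 higher (*Dbp*, *Hlf* and *Bhlhe41*), beside the 3.48% and 2.68% of all rows given above. The groups did not overlap for 8 genes in the lower and 4 in the higher direction, beside 8.97% and 7.2% of all rows. The median log2 fold change was -0.08 beside 0.01 over all rows. *Dbp*, *Tef* and *Hlf* encode the PAR bZIP activators of D-box genes, and *Nfil3* encodes the repressor of the same sites. *Dbp* stood at 14.9, 13.4, 30.6 and 4.26 CPM in the controls and at 84.7, 80.3, 96.7 and 65.1 CPM in the NOX4-deficient libraries. The groups were far apart and control replicate 4 again was lowest. The log2 fold change was 2.37 (95% interval 1.26 to 3.48, edgeR adjusted p = 0.0245), and the call was lost in 6 of the 8 fits that left out 1 library, with the fold change at 2.06 or above in all 8.

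*Hlf* averaged 12 ± 3.01 and 33 ± 4.45 CPM in control and NOX4-deficient mice (SD, n = 4 each), and its log2 fold change was 1.46 (edgeR adjusted p = 9.61e-04). *Nfil3* averaged 63.1 ± 15.3 and 19.1 ± 4.53 CPM (SD, n = 4 each), and its log2 fold change was -1.72 (edgeR adjusted p = 5.96e-04). *Tef* was not called (0.17, adjusted p = 0.376). The D-box activators *Dbp* and *Hlf* thus moved opposite to the repressor *Nfil3*, while the activator *Tef* did not pass the test. Whether these changes bear on *Per3*, whose window holds the D-box letters, was not tested.

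In the nuclear receptor loop, which acts on the ROR element, the REV-ERB genes *Nr1d1* (0.22, 95% interval -0.24 to 0.69) and *Nr1d2* (0.20, -0.08 to 0.49) and the activator *Rora* (-0.30, -0.67 to 0.07) did not pass the test, with edgeR adjusted p from 0.325 to 0.579. *Rorb* was too low to be tested. *Nr1d1* was highest in NOX4-deficient replicate 1 (116 CPM) and lowest in NOX4-deficient replicate 3 (51 CPM), with the controls between 61.7 and 73.4 CPM. Of the E-box repressors DEC1 and DEC2, *Bhlhe41* (DEC2) rose from 30.9 ± 7.44 to 75.4 ± 13.8 CPM (SD, n = 4 each, log2 fold change 1.29, edgeR adjusted p = 0.00165). *Bhlhe40* (DEC1) had a log2 fold change of 0.60 (edgeR adjusted p = 0.174).

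**Figure D4:**
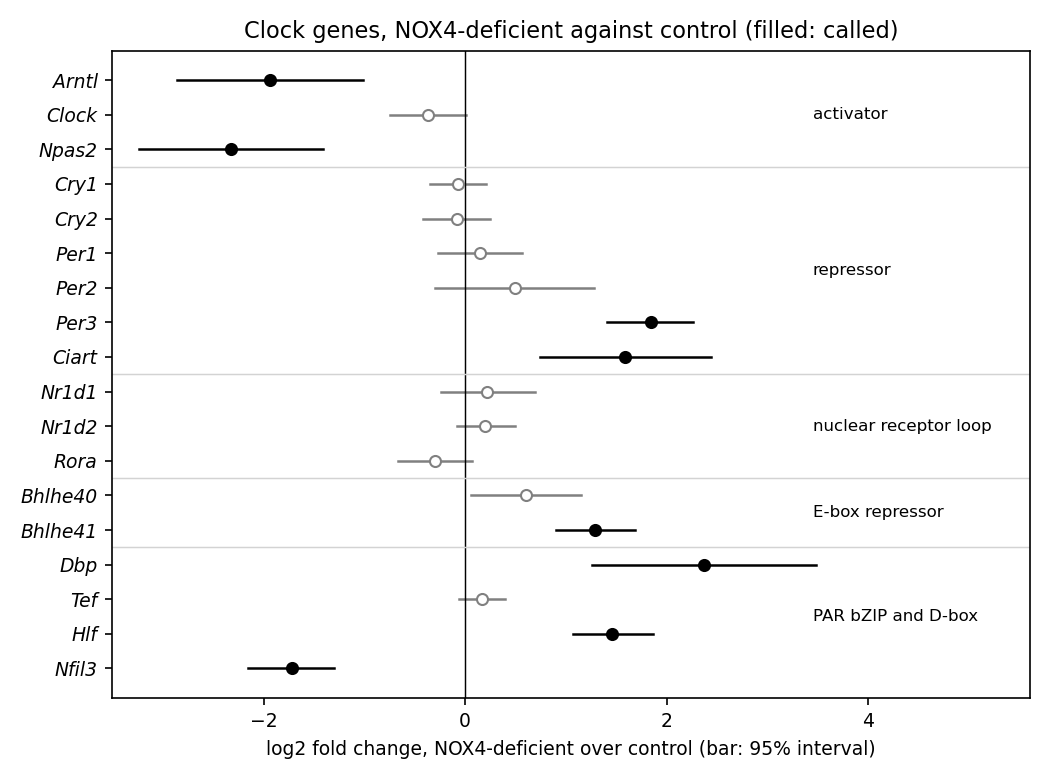
log2 fold change with 95% interval (edgeR) for the core loop and the related transcription factors, by role, with filled black points for called genes. *Arntl*, *Npas2* and *Nfil3* lie below 0 and *Per3*, *Ciart*, *Bhlhe41*, *Dbp* and *Hlf* above, while the intervals of *Cry1*, *Cry2*, *Per1* and *Per2* include 0.

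Of the enzymes that set the stability of the clock proteins none was called. None of 12 kinase and phosphatase genes (such as *Csnk1d* and *Csnk1e*, the casein kinases that mark PER proteins) was called in edgeR, 4 had an unadjusted p under 0.05, and DESeq2 and pydeseq2 called 0. The groups did not overlap for 1 of the 12 in each direction, where 8.97% of all rows were apart in the lower and 7.2% in the higher. Of 4 ubiquitin enzymes tested, 0 were called in edgeR, DESeq2 and pydeseq2, and 2 had an unadjusted p under 0.05. The groups did not overlap for 1 of the 4, in the lower direction. Of 16 cofactors, *Wdr5* was called lower at the edge of the fold threshold (log2 fold change -0.50, edgeR adjusted p = 0.018), and it kept its call in 9 of 19 alternatives. The log2 fold change was below 0 in 12 of the 16 and above 0 in 4, and 6 had an unadjusted p under 0.05. The groups did not overlap for 5 cofactors in the lower and 0 in the higher direction. The plot of clock genes by library shows the transcription factors mouse by mouse.

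**Figure D5:**
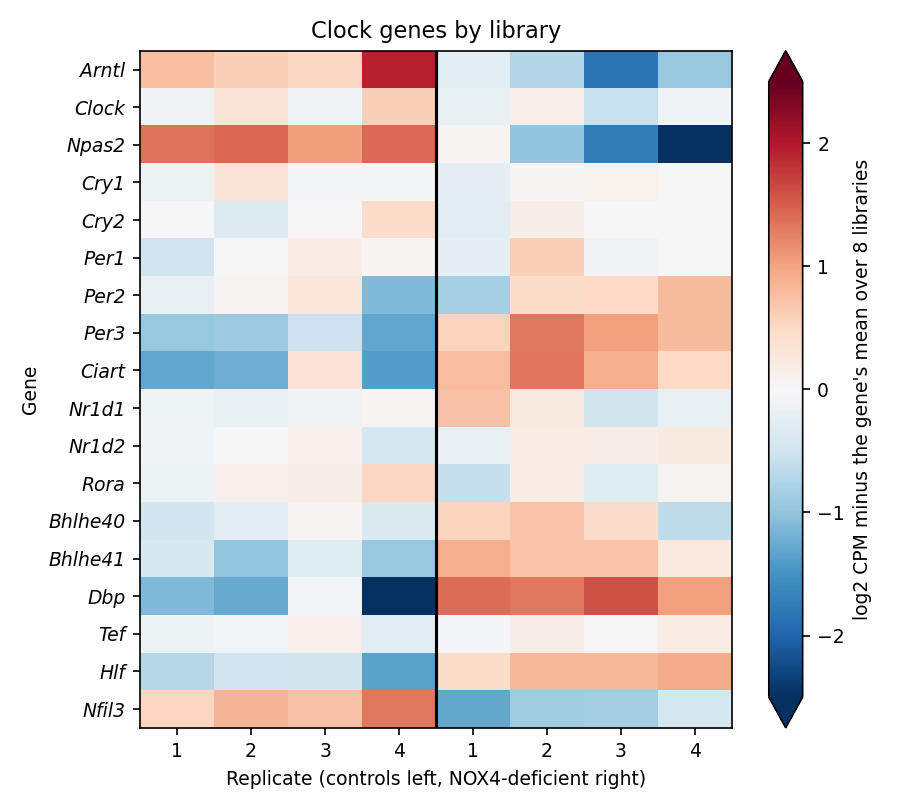
log2 CPM of each clock gene minus its mean over the 8 libraries (red above, blue below), for controls left and NOX4-deficient mice right of the line. *Arntl*, *Npas2* and *Nfil3* are high in the controls, most so in replicate 4 for *Arntl* and *Nfil3*, and *Per3*, *Ciart*, *Dbp* and *Hlf* are low there, with *Ciart* of control replicate 3 (9.69 CPM) as an exception.

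Lists of genes that respond to hormones, fasting, stimulation or the clock were read in the same libraries, and their part in the clock result was not tested. The counts below are to be read beside all rows, of which 3.48% were called lower and 2.68% higher. The median log2 fold change over all rows was 0.01. Of 12 glucocorticoid-responsive genes tested, 8 were called lower and the median log2 fold change was -1.26, led by *Zbtb16* (-1.98), *Mt1* (-1.83) and *Cdkn1a* (-2.03). Their summed level was 1397 to 1974 CPM in the controls and 930.3 to 1115 CPM in the NOX4-deficient libraries. *Per1*, which glucocorticoids can induce, was not called, as stated above. Of 14 fasting-responsive genes, 8 were called lower, with a median of -1.19, led by *Gabarapl1* (-1.58), *Plin5* (-1.74) and *Lpin1* (-1.44), and their summed level was 4617 to 6639.8 CPM in the controls and 1319 to 2361 CPM in the NOX4-deficient libraries. Of 14 immediate early genes tested, *Atf3* was called lower (-1.36), and the median of the list was -0.15. Among 9 genes known as outputs of the clock, 2 were called higher and 2 lower, with the smallest p-values for *Tspan4* (1.09), *Cdkn1a* and *Por* (-0.53). *Cdkn1a* is on the glucocorticoid and the output list, and *Ddit4* on the glucocorticoid and the fasting list.

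Markers of other cells in the muscle were also summed. Red blood cell markers were higher in NOX4-deficient libraries (72.4 to 159 CPM against 47.6 to 52.7 CPM in control). Of 6 markers 4 had a row, and 2 of 3 tested were called higher, beside 2.68% of all rows. The summed levels of slow-fiber (294 to 639 against 386 to 1155 CPM), adipocyte (14.6 to 80.8 against 20.3 to 74.3), immune (28.2 to 69.6 against 17.5 to 37.4) and fibroblast and tendon markers (345 to 594 against 321 to 528) overlapped between control and NOX4-deficient libraries. Those of endothelial (208 to 249 against 234 to 251), Schwann (50.7 to 75.6 against 60.4 to 152) and smooth muscle markers (79.3 to 103 against 76.3 to 111) did too. Of all these overlapping lists 1 gene, the endothelial *Vwf*, was called in edgeR. The log2 fold change was above 0 in 7 of 7 slow-fiber (median 0.66), 5 of 5 Schwann (0.62) and 5 of 6 adipocyte markers (0.59), and below 0 in 6 of 7 immune markers (-0.47). The part of these cells in the clock result was not tested, and in bulk muscle fewer cells with a transcript cannot be told apart from less of it per cell.

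The genes whose profile over the 8 libraries lay nearest to that of *Arntl*, by the root mean square difference of log2 CPM after centring each gene, were *Odc1* (0.343), *Fbxo32* (0.351), *Slc18a1* (0.353), *Cdkn1a* (0.359) and *Nxpe3* (0.384). *Arntl* itself varied by 1.1 about its mean on this scale. *Odc1* encodes the first enzyme of polyamine synthesis, *Fbxo32* the muscle ubiquitin ligase atrogin-1 and *Cdkn1a* the cell cycle inhibitor p21, and all 5 genes were called lower. *Slc18a1* was scarce, at 0.803 to 2.44 CPM in control, so that its likeness rests on few counts. At 0.105 to 0.586 CPM in NOX4-deficient libraries, it passed the filter on low counts (0.527 CPM in at least 4 libraries) through its controls, as *Npas2* did. It kept its call in 9 of 18 alternatives. Nearest to *Per2* were *Mylk4* (0.142), a kinase gene of the myosin light chain kinase family, *Pcdhgb4* (0.228), *Hs6st2* (0.27), *Proz* (0.299) and *Ccbe1* (0.309), beside 0.619 for *Per2* about its own mean. None of these 5 was called in edgeR, and *Pcdhgb4* and *Proz* lay near or under 1 CPM.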

How the data were processed

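Raw counts of reads per gene were deposited by the authors as 1 table, 1 column per mouse, without normalization. Per the paper's methods, poly(A) unstranded paired-end libraries were processed with an nf-core pipeline, and the submitters' processing notes name STAR and GRCm39. The methods name feature count matrices from the nf-core pipeline as the input to later steps. Which annotation was used, and with which settings reads were assigned to genes, is not given in the sources used here. Since strand was not kept, reads from a gene and from an antisense partner cannot be told apart where their exons overlap. In GENCODE M21 (GRCm38) the exons of *Arntl* and *Cry2* overlap antisense genes, which had 0 and 0 to 11 counts per library, and the antisense neighbour of *Ciart*, with no shared exon, had 10 to 43.

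All 8 columns matched a sample by title, and 0 were left over. Where a symbol repeats (412 rows), the row with most counts bears the name. TMM scaling, filterByExpr, estimateDisp, robust glmQLFit and glmQLFTest of edgeR 4.0.16 (R 4.3.3) were applied to the 8 libraries, genotype being the sole term, and Benjamini-Hochberg adjustment covered the 12725 rows kept. Thresholds follow the paper's methods. Standard errors are the log2 fold change over the square root of F, and 95% intervals use the total degrees of freedom. log2 CPM used a prior count of 2. Replicate libraries differed by more than sampling noise, with a chi-square of 12.6 to 52.1 per degree of freedom in pairs within a group. DESeq2 1.42.0, pydeseq2 0.5.4, other scalings and filters, leave-one-out fits and a replicate block were run as alternatives, and fits of the odd-numbered or the even-numbered mice alone and an index without *Npas2* were chosen after seeing the data. The edgeR p-values set the difference between genotypes against the variation between mice. That variation was estimated from 4 animals per genotype, with information shared across genes.

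The members and lists were chosen with earlier results of these data known. The text names the 9 members, *Nox4*, the transcription factors and the called genes of the other clock genes, up to 3 called genes with the smallest p-values per responsive list, and the 5 nearest profiles of *Arntl* and *Per2*. Members of gene families that share sequence could share reads. Protein sequences were not used here, and some clock genes are not reported here.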

Additional observations from a re-analysis of the deposited data

Results flagged for a closer look

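Dixon's ratio, the distance from the highest or lowest of 4 libraries to its neighbour as a share of the whole spread, was set against its 95% critical value. Over the named genes and the index, 80 groups were tested and 10 had such a library, where chance gives about 1 in 20 groups (4 of these). Among the core loop genes, *Arntl* was flagged for control replicate 4 as the highest control (ratio 0.892) and *Ciart* for control replicate 3 as the highest control (0.951). Control replicate 4 was also the highest control for *Cdkn1a* (0.869), *Lpin1* (0.884) and *Fbxo32* (0.871). NOX4-deficient replicate 1 was the lowest of its group for *Nox4* (0.918), *Nr1d2* (0.837), *Mylk4* (0.888) and *Ccbe1* (0.897). NOX4-deficient replicate 2 was the lowest of its group for *Mt1* (0.87). *Cdkn1a*, *Fbxo32*, *Mylk4* and *Ccbe1* were named for profiles near those of *Arntl* or *Per2*, so their flags are not independent of them.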

How the results depend on the processing

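Of 697 values of 37 named genes under alternatives, 622 kept their direction and their side of the threshold, 63 lost the call, 1 gained it and 11 changed sign. The count of called core loop genes (4) fell to 2 without the filter on low counts and at an adjusted p under 0.01, and to 1 and 2 in the odd and even replicate numbers. It ran from 2 to 4 with 1 library left out, lowest without NOX4-deficient replicate 2. The count of called rows (784) was 252 at an adjusted p under 0.01, and 550 in the odd and 90 in the even numbers. With 1 library left out it ran from 499 to 712, lowest without control replicate 4. The 5 other clock genes called were 3 at an adjusted p under 0.01, 3 in the odd and 2 in the even numbers, and 3 to 4 with 1 library left out (3 without NOX4-deficient replicate 1 or 2). The index difference of -2.15 was -2.84 with *Arntl* and *Npas2* against the *Per* genes alone, and -2.46 to -1.91 with 1 library left out. Sign changes were confined to genes not called. In the odd numbers *Cry1* was 0.00, *Per1* -0.07, *Per2* -0.09, *Nr1d2* -0.01 and *Tef* -0.01. With 1 library left out *Cry1* ran from -0.12 to 0.04, *Cry2* from -0.19 to 0.08, *Per1* from -0.06 to 0.26 and *Nr1d1* from -0.03 to 0.39. At least 10 counts in every sample removed *Npas2*, which has no value there. The causes of these changes were not tested. The odd and even fits also held fewer mice (2 against 2), and the filters added or removed rows.

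For mice of the same number, the correlation of deviations from the group means was 0.223, 0.147, 0.041 and 0.0412. It was 0.041 to 0.223 between control and NOX4-deficient mice whose numbers were both odd or both even. Where 1 number was odd and the other even, it was -0.215 to 0.00804. What the numbers stand for is not given in the labels. Not every mouse correlated best with its own number, since control replicate 2 did so with NOX4-deficient replicate 4 (0.187). With the replicate block 933 rows, 4 core loop genes and 4 other clock genes were called, with *Arntl* at -1.88 and *Per3* at 1.83, and *Ciart* at 1.72. With a term for odd and even numbers 962 rows and the same number of core loop genes were called, with *Arntl* (edgeR adjusted p = 0.0498) and *Ciart* (0.0495) just inside the threshold. The low counts of *Npas2* limit the precision of its fold change.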
